A study of Mus musculus with 8 samples.

Results

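Duodenal iron absorption and storage was followed through 8 genes chosen by name: Cybrd1, Slc11a2, Slc40a1, Heph, Fth1, Ftl1, Tfrc and Hmox1. All 8 were found, each as 1 of the 54532 genes in the deposited table. RNA came from the duodenum of Zeb2+/- mice, which carry a global heterozygous knockout of Zeb2 and so 1 intact copy of the gene, and of WT (Zeb2+/+) mice with 2 intact copies, with 4 libraries of each genotype. The study used these mice to ask about the growth retardation of Mowat-Wilson syndrome. The sources used here do not give age, sex, diet or whether each library is 1 animal, so a p-value speaks only of the spread among these libraries, part of which may be technical.

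Iron reaches the body through enterocytes of the proximal small intestine. Dietary ferric iron is reduced at the brush border, carried into the cell as ferrous iron, and then either stored in ferritin or exported across the basolateral membrane and oxidised for loading onto transferrin. Intake is adjusted to the body's iron by hypoxia-inducible factors, which act on the genes of uptake and export, and by iron regulatory proteins, which bind a stem-loop called the iron-responsive element in the messenger RNAs of storage, export and transferrin uptake.

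The stem-loop was looked for in the coding transcripts of the 8 genes, since it separates the genes whose messenger RNA level can follow cellular iron through decay from those controlled in translation. The motif was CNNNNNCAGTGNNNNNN, on the transcript strand only, with the 5 bases before the loop able to pair with the 5 after it (G to T pairs allowed). The 7 sites found are shown as DNA letters, 5′ to 3′, from GENCODE transcripts on GRCm38, with the 6 loop bases in capitals.
Slc40a1, chr1:45925465-45925493, minus strand, 5′ untranslated region: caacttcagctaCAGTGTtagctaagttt
Fth1, chr19:9982732-9982760, plus strand, 5′ untranslated region: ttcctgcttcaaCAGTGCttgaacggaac
Ftl1, chr7:45459779-45459807, minus strand, 5′ untranslated region: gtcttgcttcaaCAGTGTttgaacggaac
Tfrc site 1, chr16:32631219-32631247, plus strand, 3′ untranslated region: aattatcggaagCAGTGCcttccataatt
Tfrc site 2, chr16:32631598-32631626, plus strand, 3′ untranslated region: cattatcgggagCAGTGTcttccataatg
Tfrc site 3, chr16:32631663-32631691, plus strand, 3′ untranslated region: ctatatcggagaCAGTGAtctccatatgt
Tfrc site 4, chr16:32631710-32631738, plus strand, 3′ untranslated region: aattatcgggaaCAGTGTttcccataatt
Of all coding genes with the region annotated, 0.148% held this motif in a 5′ untranslated region and 0.594% in a 3′ untranslated region. No stretch that met both the letters and the pairing rule was found in Cybrd1, Slc11a2, Heph or Hmox1. An element with an unpaired base among those 5 would be missed. Cybrd1, Slc11a2, Heph and Hmox1 are therefore not shown to lack one, and the search does not sort them by type of control. The site of Slc40a1 was in 1 of its 4 coding transcripts, that of Fth1 in 4 of 5, that of Ftl1 in 1 of 2 and those of Tfrc in 1 of 3. The deposited values are per gene and do not separate transcripts with the element from those without it.

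Rebuilt reads came to 13579347 to 17137417 a library, computed from the deposited FPKM (fragments scaled to gene length and library size). Zeb2 itself stood at 0.301 ± 0.146 FPKM in Zeb2+/- and 0.943 ± 0.192 FPKM in WT (SD, n = 4 each), with every Zeb2+/- library below every WT library. The markers of the duodenum, Pdx1, Gata4, Gata6 and Onecut2, were above 0 in all 8 libraries. Of 4 genes high in the ileum, Fabp6 and Slc10a2 stayed at or below 0.908 and 0.518 FPKM, while Slc51a and Slc51b ran from 30.3 to 114.9 FPKM. Mitochondrial genes held 7.28 to 8.76% of reads in Zeb2+/- and 4.88 to 5.48% in WT, without overlap, and the part of RNA quality in the results below was not tested. Zeb2+/- library 1 stood apart: its 20 enterocyte markers summed to 18371 FPKM, against 32700 to 54763 FPKM in the other Zeb2+/- libraries and 29391 to 42600 FPKM in WT libraries. The sum is unweighted and rests mostly on the most abundant markers. In library 1 Epcam, Cdh1 and Cdx2 lay within the WT range, at 692.9, 163.4 and 73.9 FPKM. Every other marker of the list lay below all WT libraries. The smooth muscle markers of library 1 summed to 686.9 FPKM, against 279.3 to 469.6 FPKM in the other Zeb2+/- libraries and 218.9 to 279.6 FPKM in WT libraries. In bulk tissue, fewer cells of a type and less RNA per cell cannot be told apart.

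Across the 8 genes, Zeb2+/- and WT were not separated by the test used for all genes. By limma on log2(FPKM + 1), with Benjamini-Hochberg adjustment over 12190 genes, 0 of the 8 passed an adjusted p of 0.05, where 3.24% of all tested genes passed, 0.468% higher and 2.77% lower. By limma voom on the rebuilt reads 0 passed as well, and 1 gene, Cybrd1, had an unadjusted limma p below 0.05, as did 18.9% of all tested genes. The log2 fold changes of the 8 had a median of -0.24, against 0.00 for all tested genes, with 6 below 0 and 2 above 0. The gene with the clearest separation was the brush border reductase Cybrd1, at 33.9% of the WT mean. For each of the other 7 the libraries of the genotypes overlapped.

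**Figure D1:**
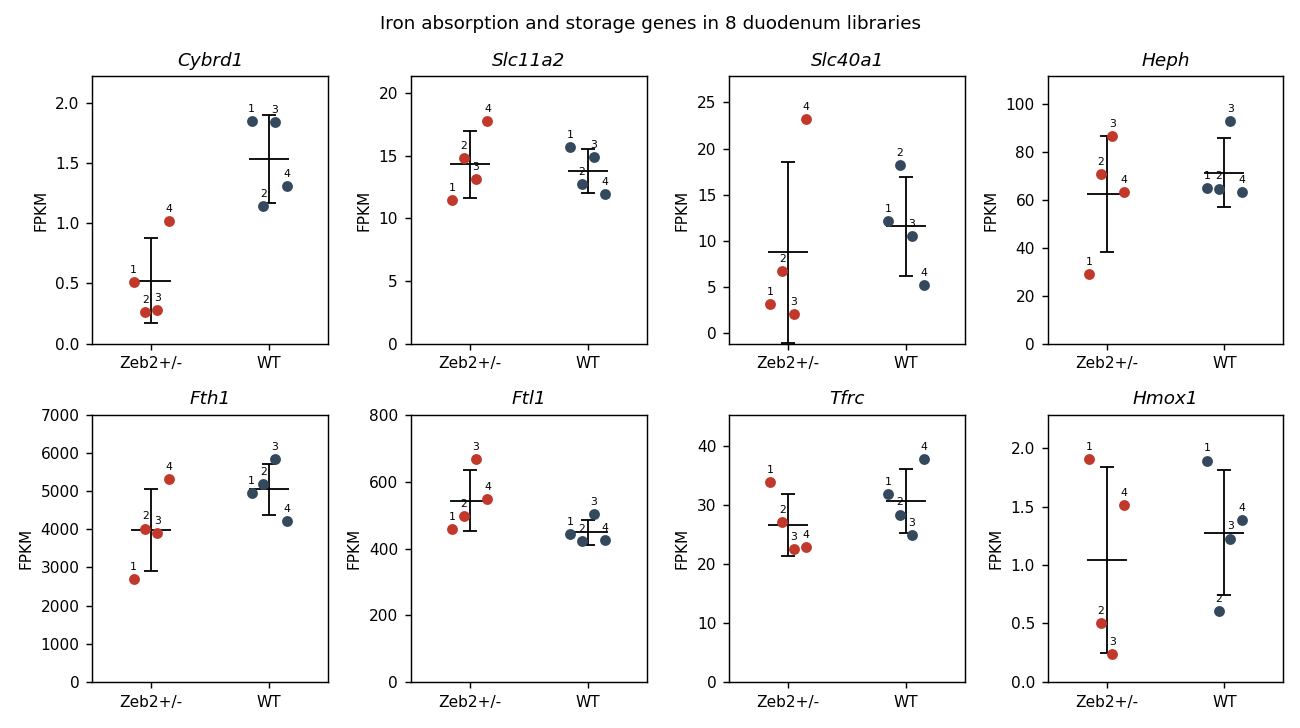
FPKM of each of the 8 genes (vertical axes, linear) in the 4 Zeb2+/- (red) and 4 WT (dark blue) libraries, with the library number above each point and bars at mean ± SD. Cybrd1 is the gene whose Zeb2+/- points, 0.265 to 1.02 FPKM, all lie below the WT points, 1.14 to 1.85 FPKM.

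By level per length, Fth1 averaged 3978 FPKM in Zeb2+/- and 5051 FPKM in WT, and Cybrd1 0.521 FPKM in Zeb2+/- and 1.54 FPKM in WT. In Zeb2+/- the order by mean FPKM was Fth1, Ftl1, Heph, Tfrc, Slc11a2, Slc40a1, Hmox1 and Cybrd1. The first 6 held the same order in WT, where Cybrd1 stood above Hmox1. Slc11a2 and Slc40a1 had overlapping ranges in both genotypes, as did Cybrd1 and Hmox1, and Heph and Tfrc overlapped in Zeb2+/- through the low Heph of library 1. Fth1 ranked 7 by mean FPKM among all genes of the table and Ftl1 ranked 104, while Cybrd1 ranked 12108.

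Cybrd1 (ENSMUSG00000027015, GRCm38 chromosome 2, 71117923 to 71142926, plus strand) encodes the duodenal cytochrome b that reduces ferric iron at the brush border. Cybrd1 measured 0.514, 0.265, 0.282 and 1.02 FPKM in Zeb2+/- libraries 1 to 4, against 1.85, 1.14, 1.84 and 1.31 FPKM in WT libraries 1 to 4. The highest Zeb2+/- library lay just under the lowest WT library, and libraries 2 and 3 were the lowest of the 8. These values rest on few reads, 51, 16, 18 and 70 in Zeb2+/- and 149, 98, 128 and 101 in WT. The means were 0.521 ± 0.353 FPKM in Zeb2+/- and 1.54 ± 0.363 FPKM in WT (SD, n = 4 each), with p = 0.0286 in an exact permutation test (two-sided), the least possible for 4 against 4. On the log2 scale Cybrd1 differed by -0.75 (SE 0.19), with a 95% interval of -1.19 to -0.31, and the limma adjusted p over all genes was 0.0803, which missed the threshold. All 4 Zeb2+/- libraries lay below all 4 WT libraries in 6.87% of tested genes. Without Zeb2+/- library 4 the adjusted p was 0.0424. The pseudocount of 1 is large beside these levels: the log2 difference was -1.53 with 0.1, -0.24 with 5 and -1.74 by voom on the reads, with no call in these 3. All 19 alternatives fitted for Cybrd1 lay between the last 2 values.

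Several cell type lists moved in the same direction as Cybrd1. Of 9 fibroblast markers 5 fell and 0 rose, with summed levels of 29.2 to 71.7 FPKM in Zeb2+/- and 94.5 to 139.7 FPKM in WT, and of 7 endothelial markers 6 fell and 0 rose, at 5.70 to 12.3 FPKM in Zeb2+/- and 24.2 to 29.6 FPKM in WT. All 12 pancreatic acinar markers fell, at 4.06 to 24.3 FPKM in Zeb2+/- and 221.6 to 3049 FPKM in WT. By voom on rebuilt reads 3 of the fibroblast, 5 of the endothelial and 1 of the acinar markers passed, all lower. Each of these markers was above 0 in at least 1 library. Of 7 plasma cell markers 1 fell and 0 rose by limma, and 0 passed by voom. They summed to 101.8 to 209.7 FPKM in Zeb2+/- and 353.3 to 463.7 FPKM in WT. Smooth muscle went the other way: of 8 tested markers 0 passed, but all 8 log2 fold changes were above 0, 5 at an unadjusted limma p below 0.05. The B cell and adipocyte lists also had medians above 0, with 0 passed. The crypt proliferation list had a median of 0.04, with 7 of 12 log2 fold changes above 0. Of its markers 1 rose by limma, Birc5 (adjusted p = 0.0385), and 0 passed by voom. Enterocyte markers, where Cybrd1 is known to act, did not separate: 0 of 20 passed by limma and 0 by voom, with 1 at an unadjusted limma p below 0.05 (Cdh1). Set against the summed enterocyte markers, Cybrd1 was 0.178 ± 0.137 FPKM in Zeb2+/- and 0.449 ± 0.124 FPKM in WT per 10000 FPKM of those markers (SD, n = 4 each). The 2 genotypes did not overlap in this description either. How often other genes do not overlap after the same division was not computed. The part of the enterocyte, stromal, vascular, pancreatic and plasma cell lists in the Cybrd1 difference was not tested.

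Slc11a2 (ENSMUSG00000023030, chromosome 15, 100387898 to 100425072, minus strand) encodes the divalent metal transporter that carries ferrous iron across the brush border. It measured 11.5, 14.9, 13.1 and 17.8 FPKM in Zeb2+/- libraries 1 to 4, against 15.7, 12.7, 14.9 and 12.0 FPKM in WT libraries 1 to 4. The 2 sets of libraries interleaved, with a Zeb2+/- library at each end. The log2 fold change was 0.04 (SE 0.15, limma adjusted p = 0.923), and the 95% interval of the fold on the FPKM + 1 scale ran from 0.810 to 1.30. Its sign turned under TPM scaling (-0.066) and without Zeb2+/- library 4 (-0.066) or WT library 4 (-0.024).

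Slc40a1 (ENSMUSG00000025993, chromosome 1, 45908068 to 45926523, minus strand) encodes ferroportin, the exporter of iron at the basolateral membrane, which is also used by macrophages. It measured 3.10, 6.71, 2.07 and 23.2 FPKM in Zeb2+/- libraries 1 to 4, against 12.2, 18.3, 10.5 and 5.25 FPKM in WT libraries 1 to 4. Zeb2+/- library 4 held the highest value of all 8 and Zeb2+/- library 3 the lowest, so the highest Zeb2+/- library exceeded the lowest by 11.2 times, against 3.48 times in WT. Over all tested genes the median of that ratio in Zeb2+/- was 1.77. The means were 8.77 ± 9.81 FPKM in Zeb2+/- and 11.6 ± 5.36 FPKM in WT (SD, n = 4 each). The log2 fold change was -0.74 (SE 0.62, limma adjusted p = 0.571), with a 95% interval of -2.15 to 0.67. It was -1.34 without Zeb2+/- library 4 (adjusted p = 0.161), -0.35 without Zeb2+/- library 3, 0.23 without Zeb2+/- libraries 1 and 3 together, and 0.33 with array weights.

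The genes whose pattern over the 8 libraries was nearest to Slc40a1 were Pdx1, S100g and Slc16a9, by the root mean square difference of centred log2(FPKM + 1) among 6383 protein-coding genes. The differences were 0.479, 0.480 and 0.529, against a median of 1.02 over the candidates. The root mean square of Slc40a1 about its own mean was 0.980, so the likeness was loose. Pdx1 is the homeobox factor of the duodenum and pancreas, and S100g encodes the calcium-binding protein of duodenal enterocytes. Pdx1 measured 3.66, 10.1, 5.31 and 15.5 FPKM in Zeb2+/- libraries 1 to 4, against 13.1, 14.6, 9.91 and 8.14 FPKM in WT libraries 1 to 4. S100g measured 99.2, 99.8, 77.6 and 348.9 FPKM in Zeb2+/- libraries 1 to 4, against 127.5, 249.5, 205.0 and 66.7 FPKM in WT libraries 1 to 4. All 3 of Slc40a1, Pdx1 and S100g were highest in Zeb2+/- library 4 and, within WT, highest in library 2 and lowest in library 4. Pdx1 and S100g were picked for their likeness to Slc40a1, so the choice itself favoured this order. Slc16a9 did not follow this order, with 17.4 FPKM in Zeb2+/- library 4 and its highest value, 17.6 FPKM, in WT library 3. Nor did the other 3 markers of the duodenum: Gata4 was highest in Zeb2+/- library 2 at 61.9 FPKM, Gata6 in WT library 3 at 45.0 FPKM and Onecut2 in WT library 1 at 10.1 FPKM. The sources used here do not say where along the duodenum each sample was taken, and the part of position was not tested.

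**Figure D2:**
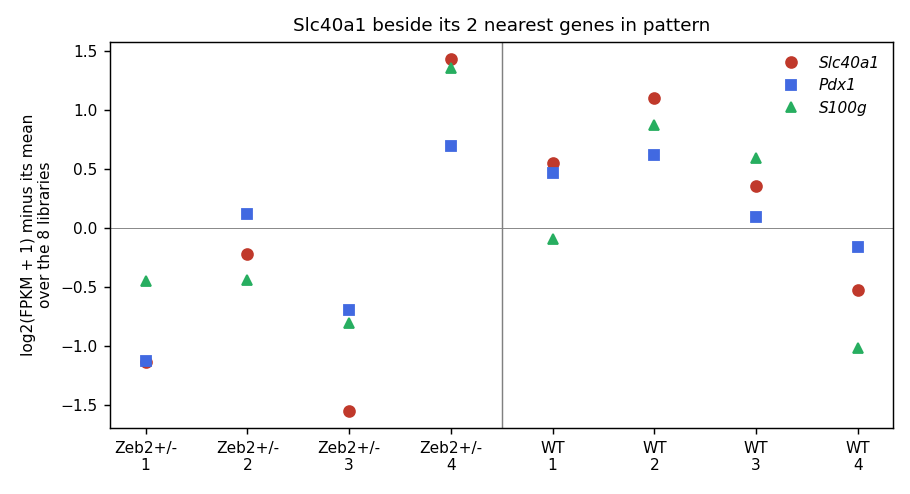
Log2(FPKM + 1) minus its mean over the 8 libraries (vertical axis) for Slc40a1 (red circles), Pdx1 (blue squares) and S100g (green triangles), in Zeb2+/- libraries 1 to 4 on the left and WT libraries 1 to 4 on the right. All 3 genes peak in Zeb2+/- library 4, where Slc40a1 stood at 23.2 FPKM. Pdx1 and S100g were picked for their likeness to Slc40a1 over these libraries.

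Slc40a1 in macrophages could also enter the bulk value. Of 11 tested macrophage markers 6 fell and 0 rose in Zeb2+/-, and the 14 markers in the table summed to 260.0, 42.3, 19.1 and 184.0 FPKM in Zeb2+/- libraries 1 to 4, against 213.1, 212.1, 183.7 and 205.3 FPKM in WT libraries 1 to 4. In Zeb2+/- libraries 1 and 4 most of that sum was Lyz2, at 202.3 and 142.4 FPKM. Adgre1, which encodes the macrophage antigen F4/80, was at most 0.650 FPKM in Zeb2+/- and at least 3.11 FPKM in WT. In Zeb2+/- library 4 Adgre1 was below every WT library, while Lyz2 and Slc40a1 were above every WT library. The part of macrophage content in Slc40a1 was not tested.

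Heph (ENSMUSG00000031209, chromosome X, 96455359 to 96574485, plus strand) encodes hephaestin, the copper oxidase that works beside ferroportin. It measured 28.9, 70.7, 86.5 and 63.4 FPKM in Zeb2+/- libraries 1 to 4, against 64.8, 64.7, 92.9 and 63.0 FPKM in WT libraries 1 to 4. Zeb2+/- library 1 was lower than the other 7, which overlapped, and WT library 3 was the highest of all. Heph differed by -0.28 on the log2 scale (SE 0.32, limma adjusted p = 0.694) and by 0.050 without Zeb2+/- library 1. The enterocyte markers had the lowest sum in the same Zeb2+/- library and the highest WT sum in WT library 3. Per 10000 FPKM of those markers Heph was 15.8 to 19.4 FPKM in Zeb2+/- and 17.4 to 22.1 FPKM in WT, with overlap, and the part of enterocyte content in Heph was not tested. The genes nearest to Heph in pattern were Jup, Litaf and Chp2, at 0.053 to 0.068 on the log2 scale, where the candidates had a median of 0.425. Jup encodes the junction protein plakoglobin.

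Fth1 and Ftl1 encode the heavy and light subunits of ferritin, the storage shell for iron, of which the heavy subunit carries the oxidase activity. Fth1 (ENSMUSG00000024661, chromosome 19, 9982703 to 9985092, plus strand) measured 2686, 4021, 3893 and 5312 FPKM in Zeb2+/- libraries 1 to 4, against 4959, 5195, 5836 and 4213 FPKM in WT libraries 1 to 4. Ftl1 (ENSMUSG00000050708, chromosome 7, 45457944 to 45459884, minus strand) measured 458.2, 497.6, 667.6 and 550.0 FPKM in Zeb2+/- libraries 1 to 4, against 442.2, 422.4, 503.4 and 424.5 FPKM in WT libraries 1 to 4. For Fth1, 3 Zeb2+/- libraries lay below all WT libraries and 1 among them, and for Ftl1, 2 Zeb2+/- libraries lay above all WT libraries and 2 among them. The log2 fold change was -0.38 for Fth1 (SE 0.25, limma adjusted p = 0.462) and 0.27 for Ftl1 (SE 0.17, limma adjusted p = 0.448). The 95% interval of the fold was 0.520 to 1.14 for Fth1 and 0.919 to 1.58 for Ftl1. Neither gene passed in any of the 20 alternatives, and neither sign turned, but the sizes moved. Fth1 differed by -0.20 without Zeb2+/- library 1 and by -0.053 with array weights, and Ftl1 by 0.16 without Zeb2+/- library 3. Over all 20 alternatives Fth1 ran from -0.54 to -0.053 and Ftl1 from 0.16 to 0.34.

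The ratio of the ferritin subunits within a library does not depend on how the library was scaled. Fth1 per Ftl1 was 5.86, 8.08, 5.83 and 9.66 in Zeb2+/- libraries 1 to 4, against 11.2, 12.3, 11.6 and 9.93 in WT libraries 1 to 4. All Zeb2+/- ratios lay below all WT ratios, with Zeb2+/- library 4 closest to WT library 4. The means were 7.36 ± 1.86 in Zeb2+/- and 11.3 ± 0.995 in WT (SD, n = 4 each). This ratio was 1 of 3 computed and is given as a description, without a test. Of all tested genes 14.5% did not overlap between genotypes, in either direction, and no such share was computed for ratios. The table also holds 14 other genes whose symbols start with Fth or Ftl, of which 11 were listed at 0 in every library. The most abundant, the copy Ftl1-ps1, stood at 12.2 ± 2.23 FPKM in Zeb2+/- and 9.00 ± 0.725 FPKM in WT (limma adjusted p = 0.156), at most 2.43% of Ftl1 in the same library. The sources used here do not say how reads shared between such copies were assigned, so the ferritin values are uncertain to that extent.

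**Figure D3:**
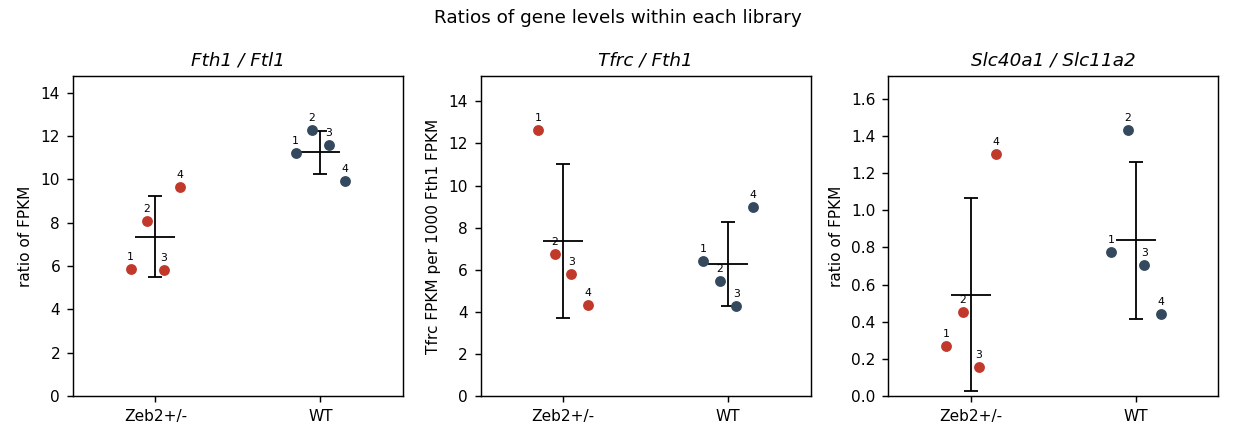
Ratios of FPKM within each library for Fth1 to Ftl1, Tfrc to Fth1 (per 1000 FPKM of Fth1) and Slc40a1 to Slc11a2 (vertical axes, linear) in 4 Zeb2+/- (red) and 4 WT (dark blue) libraries, with library numbers and bars at mean ± SD. Fth1 to Ftl1 is the ratio without overlap, at 5.83 to 9.66 in Zeb2+/- and 9.93 to 12.3 in WT. How often ratios of other genes do not overlap was not computed.

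Tfrc (ENSMUSG00000022797, chromosome 16, 32608920 to 32632794, plus strand) encodes the transferrin receptor, which takes up iron from plasma at the basolateral side and is abundant in dividing crypt cells. It measured 34.0, 27.2, 22.5 and 22.9 FPKM in Zeb2+/- libraries 1 to 4, against 31.8, 28.4, 25.0 and 37.8 FPKM in WT libraries 1 to 4. The genotypes overlapped, with the lowest pair of libraries in Zeb2+/- and the highest library in WT. Tfrc differed by -0.20 on the log2 scale (SE 0.18, limma adjusted p = 0.582), and the 95% interval of the fold was 0.660 to 1.14. The difference was -0.10 without WT library 4 and -0.32 without Zeb2+/- library 1. The summed markers of crypt proliferation were highest in Zeb2+/- library 1 and lowest in Zeb2+/- library 3, at 178.3 and 87.4 FPKM, against 129.3 to 136.8 FPKM in WT libraries. Tfrc was likewise highest in library 1 and lowest in library 3 within Zeb2+/-. Zeb2+/- library 4 broke this order, with a marker sum of 161.0 FPKM but Tfrc at 22.9 FPKM. Zeb2+/- library 2 had a lower sum, 133.9 FPKM, and more Tfrc, 27.2 FPKM. The part of proliferation in Tfrc was not tested. Tfrc per 1000 FPKM of Fth1, a pair that cellular iron is known to move in opposite directions at the protein level, was 7.38 ± 3.66 in Zeb2+/- and 6.29 ± 1.99 in WT (SD, n = 4 each), with 12.7 in Zeb2+/- library 1 and 4.31 to 6.76 in the other Zeb2+/- libraries.

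Hmox1 (ENSMUSG00000005413, chromosome 8, 75093621 to 75100589, plus strand) encodes the inducible haem oxygenase that frees iron from haem. It measured 1.90, 0.506, 0.239 and 1.51 FPKM in Zeb2+/- libraries 1 to 4, against 1.89, 0.603, 1.23 and 1.39 FPKM in WT libraries 1 to 4. The values rest on 62, 10, 5 and 34 reads in Zeb2+/- and 50, 17, 28 and 35 reads in WT. Zeb2+/- libraries 1 and 4 were level with WT, and Zeb2+/- libraries 2 and 3 were the lowest of the 8. Hmox1 differed by -0.21 on the log2 scale (SE 0.30, limma adjusted p = 0.759), which turned to 0.072 under quantile normalization and 0.069 with array weights. Zeb2+/- libraries 1 and 4 also held more B cell transcripts, with 8 markers summing to 161.7 and 107.4 FPKM, against 2.30 and 1.11 FPKM in Zeb2+/- libraries 2 and 3 and 4.58 to 49.8 FPKM in WT libraries. Of the 8 B cell markers 0 passed by limma and 0 by voom, with 0 at an unadjusted limma p below 0.05, and the part of lymphoid or macrophage content in Hmox1 was not tested.

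**Figure D4:**
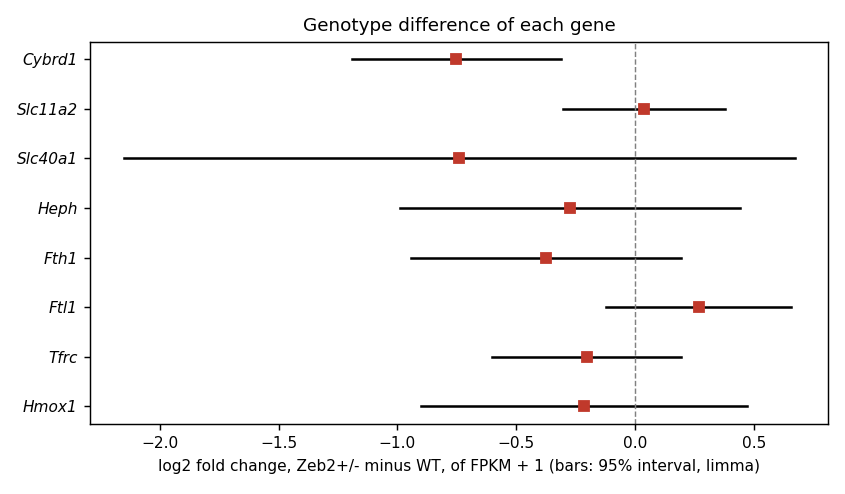
Log2 fold change of FPKM + 1, Zeb2+/- minus WT (horizontal axis), for the 8 genes, with squares at the limma estimate and bars at its 95% interval before adjustment. The bar of Cybrd1, -1.19 to -0.31, does not cross 0 (adjusted p = 0.0803), and that of Slc40a1, -2.15 to 0.67, is the widest.

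All 8 genes had a higher coefficient of variation (SD relative to the mean) in Zeb2+/- than in WT, as did 83.2% of all tested genes. The SD itself was slightly lower in Zeb2+/- for Cybrd1, at 0.353 against 0.363 FPKM, and for Tfrc, at 5.32 against 5.46 FPKM. The coefficient of variation ran from 16.7% for Ftl1 to 112.0% for Slc40a1 in Zeb2+/-, and from 8.46% for Ftl1 to 46.4% for Slc40a1 in WT. The median over the 8 was 33.0% in Zeb2+/- and 18.9% in WT, against 24.6% in Zeb2+/- and 12.2% in WT over all tested genes.

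The wider iron pathway was read from 6 lists of 88 symbols, of which 72 were tested. By limma 0 rose and 1 fell, which is 1.39% of the 72 against 3.24% of all tested genes, and 13 (6 higher and 7 lower) had an unadjusted p below 0.05, as did 18.9% of all tested genes. The gene that fell was Hfe, the haemochromatosis protein that pairs with the transferrin receptor. Hfe stood at 1.37 ± 0.301 FPKM in Zeb2+/- and 2.93 ± 0.454 FPKM in WT (SD, n = 4 each), with a log2 fold change of -0.73 (SE 0.14, limma adjusted p = 0.0240). The genotypes did not overlap for Hfe, as for 6.87% of tested genes in that direction. Settings that ended its call included leaving out WT library 1, 3 or 4, at adjusted p of 0.0796 to 0.0859, leaving out Zeb2+/- libraries 1 and 3 together (0.0750), voom on rebuilt reads (0.0873), TPM scaling (0.0522) and no filter on low values (0.0510).

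Partners of transport showed no call among 10 tested genes, by limma or by voom, and 0 had an unadjusted p below 0.05, with a median log2 fold change of -0.13. Lrp1, the receptor that takes up haem bound to haemopexin, stood at 19.5 ± 4.80 FPKM in Zeb2+/- and 26.5 ± 6.32 FPKM in WT (SD, n = 4 each; limma adjusted p = 0.349). Flvcr2 and the zinc and iron carrier Slc39a14 had adjusted p of 0.381 and 0.524.

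Genes of intracellular iron handling gave 0 calls of 17 tested by limma and by voom, with 4 higher and 1 lower at an unadjusted p below 0.05. The 4 higher genes were all of iron-sulfur cluster assembly. Isca1 stood at 11.6 ± 1.14 FPKM in Zeb2+/- and 8.46 ± 0.422 FPKM in WT (limma adjusted p = 0.0719), and Glrx5 at 34.9 ± 9.91 FPKM in Zeb2+/- and 21.7 ± 1.38 FPKM in WT (adjusted p = 0.112; SD, n = 4 each). Both were without overlap between genotypes, as 7.65% of tested genes were in that direction. Isca2 had an adjusted p of 0.182. Ncoa4, the receptor that delivers ferritin to lysosomes, was the gene on the lower side and was picked out after its values were seen. Ncoa4 measured 6.97, 16.0, 26.7 and 26.8 FPKM in Zeb2+/- libraries 1 to 4, against 32.5, 30.0, 47.7 and 31.1 FPKM in WT libraries 1 to 4 (log2 fold change -0.99, SE 0.38, limma adjusted p = 0.211). All 4 Zeb2+/- libraries lay below all 4 WT libraries, as in 6.87% of tested genes, with library 1 the lowest.

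Haem synthesis and breakdown gave 0 calls of 12 by limma and by voom, with 1 gene higher at an unadjusted p below 0.05. This was Ppox, an enzyme late in haem synthesis, at 6.16 ± 1.22 FPKM in Zeb2+/- and 4.12 ± 0.145 FPKM in WT (SD, n = 4 each; limma adjusted p = 0.0908). Blvrb, a biliverdin reductase, and Alas1, which starts haem synthesis, had adjusted p of 0.270 and 0.290. Of the 5 tested genes of systemic iron signals, Bmp2 came after Hfe, at 4.39 ± 1.32 FPKM in Zeb2+/- and 6.82 ± 0.558 FPKM in WT (adjusted p = 0.113). Smad4 had an adjusted p of 0.557.

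Regulators by oxygen gave 0 calls of 16 by limma and by voom, with 1 higher and 3 lower at an unadjusted p below 0.05. Epas1, the hypoxia-inducible factor subunit known to drive Cybrd1, Slc11a2 and Slc40a1 in mouse enterocytes, stood at 19.8 ± 5.13 FPKM in Zeb2+/- and 29.0 ± 5.03 FPKM in WT (SD, n = 4 each; limma adjusted p = 0.187), with overlap. Egln2, a prolyl hydroxylase that marks such factors for decay, stood at 25.5 ± 2.05 FPKM in Zeb2+/- and 34.2 ± 2.92 FPKM in WT (adjusted p = 0.104). It was without overlap, as were 6.87% of tested genes in that direction. Ankrd37, a hypoxia-induced gene, stood at 4.29 ± 1.28 FPKM in Zeb2+/- and 2.15 ± 0.904 FPKM in WT (adjusted p = 0.149). Epas1 is also abundant in endothelium, of whose 7 markers 6 fell by limma, and the part of endothelial content in Epas1 was not tested.

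The list of NRF2 genes, to which Hmox1, Fth1 and Ftl1 also belong as targets, gave 0 calls of 12 by limma and by voom, with 1 lower at an unadjusted p below 0.05. This was Gclc, an enzyme of glutathione synthesis, at 22.9 ± 7.26 FPKM in Zeb2+/- and 38.1 ± 10.9 FPKM in WT (SD, n = 4 each; limma adjusted p = 0.183). Txnrd1 and Nfe2l2 itself had adjusted p of 0.366 and 0.459.

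**Figure D5:**
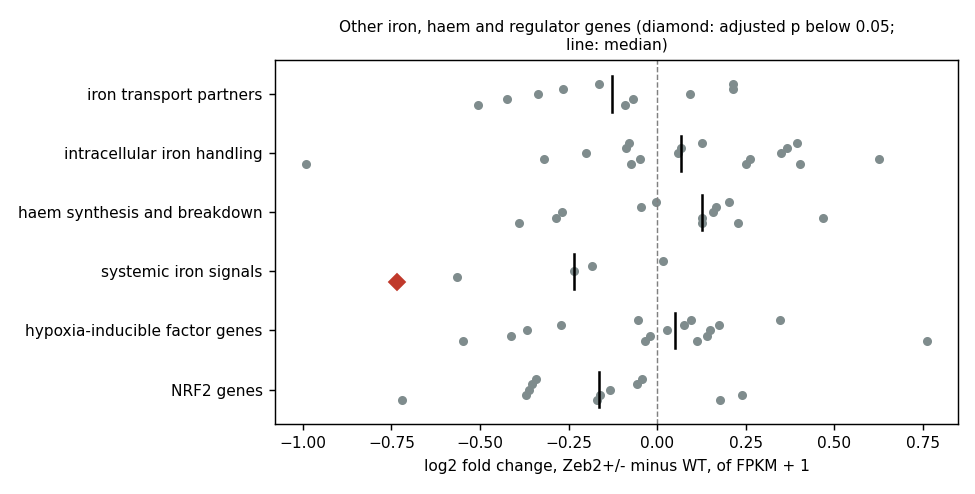
Log2 fold change of FPKM + 1, Zeb2+/- minus WT (horizontal axis), for the tested genes of the 6 lists (rows), with black lines at each list's median. The red diamond is Hfe at -0.73, the 1 gene of the 72 past an adjusted p of 0.05.

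The genes nearest in pattern to the remaining members were found in the same way. Cybrd1 was nearest to Pfkfb3, a regulator of glycolysis, at 0.142 on the log2 scale where the candidates had a median of 0.532. Pfkfb3 stood at 6.13 FPKM in Zeb2+/- and 12.3 FPKM in WT and was itself among the genes that fell (limma adjusted p = 0.0135), as was the next gene, Myh9, a non-muscle myosin (0.0209). Both were picked for a pattern like that of Cybrd1, so their fall follows from that choice and is no separate result. Fth1 was nearest to Ank, a membrane protein of pyrophosphate transport, at 0.080 on the log2 scale, and Ftl1 to Slc35a2, a Golgi sugar carrier, at 0.066. Slc11a2 was nearest to Gorasp1, Tfrc to Fundc1 and Hmox1 to Actn1, at 0.072, 0.112 and 0.199 on the log2 scale.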

How the data were processed

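RNA of duodenum was sequenced for 4 Zeb2+/- and 4 WT samples. Per the labels' protocols, polyadenylated RNA was made into directional libraries with dUTP in the second strand. Per the submitters' processing notes, HISAT2 2.0.5 and featureCounts 1.5.0-p3 were used on GRCm38 (mm10); the sources used here give neither strand nor multimapping settings. The deposited unit is FPKM, scaled per library by the authors, and no column of other samples was present.

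Within each library, 100% of values above 0, once multiplied by gene length, were a whole number of equal steps (tolerance 0.01 read), and these steps are the rebuilt reads. The library total that the FPKM imply was 0.733 to 1.16 times the sum of rebuilt reads, so an extra scale factor of unstated origin stands in the values. The 12190 genes whose mean reached 1 FPKM were fitted with limma 3.58.1 in R 4.3.3 (lmFit, eBayes with trend and robust) on log2(FPKM + 1), two-sided, genotype as the only term; this scale understates changes of genes near 0. All 8 members passed that minimum. Zeb2 lies below it and was fitted among 27850 genes (adjusted p = 0.0772). Exact permutation tests used scipy 1.17.1. The fit was also run on simulated data with the same spread in both genotypes, which cannot show how it behaves under the wider spread of Zeb2+/-.

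The members and lists were chosen with earlier results of these data known, so no list was tested. Genes of the lists were named when past the threshold or, to 3 a list, by smallest unadjusted p. Hjv is in the table under its older symbol Hfe2, and 1 listed symbol (Tf) matched no row. The match was by symbol only, so transferrin is not shown to be absent and was not read. Alternatives were other pseudocounts (0.1, 5), filters (none, 5), TPM, median of ratios and quantile scaling, plain eBayes, array weights, voom, a replicate block and leaving out libraries.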

Additional observations from a re-analysis of the deposited data

Results flagged for a closer look

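Of 50 groups of 4 libraries looked at (the 8 genes, Zeb2, the ratios and the summed marker lists), 2 held a library far from the other 3 of its group, where chance gives about 1 in 20. Heph in WT library 3 was 92.9 FPKM, with the other WT libraries at 63.0 to 64.8 FPKM. The summed crypt proliferation markers in WT library 4 were 136.8 FPKM, with the other WT libraries at 129.3 to 129.8 FPKM, a gap small in size.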

How the results depend on the processing

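In 149 of 158 fits of the 8 genes under 20 alternatives, the direction and the side of the threshold stayed as reported. Cybrd1 passed without Zeb2+/- library 4, so that the count of the 8 genes past the threshold was 0 to 1 when 1 library was left out. Directions turned for genes that were not called: Slc11a2 under TPM scaling (-0.066), without Zeb2+/- library 4 (-0.066) and without WT library 4 (-0.024), Heph without Zeb2+/- library 1 (0.050), Slc40a1 with array weights (0.33) and without Zeb2+/- libraries 1 and 3 (0.23), and Hmox1 under quantile normalization (0.072) and with array weights (0.069). The causes were not tested. With 1 library left out, log2 fold changes ran from -0.90 to -0.67 for Cybrd1, -0.066 to 0.13 for Slc11a2, -1.34 to -0.35 for Slc40a1, -0.47 to 0.050 for Heph, -0.53 to -0.20 for Fth1, 0.16 to 0.34 for Ftl1, -0.32 to -0.10 for Tfrc, -0.41 to -0.0033 for Hmox1, and -0.65 to -0.52 for Zeb2. Zeb2 passed with plain eBayes (-0.58, adjusted p = 0.0417), array weights (-0.59, 0.0463) and voom (-1.74, 0.0350).

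Over all genes, 395 passed; with a mean FPKM of at least 5 it was 157, with array weights 1187, with voom 202, and 218 to 487 with 1 library left out. The share of calls that were lower was 85.6%, against 95.4% under TPM scaling and 58.5% with array weights. Of the other iron genes 1 passed; none did with no filter, with a mean FPKM of at least 5, with the replicate block or with voom (0 each), 3 did under TPM scaling, 2 under median of ratios, 2 under quantile normalization, 8 with array weights, and 0 to 2 with 1 library left out. Labels do not say that replicate numbers pair the samples, and same-numbered libraries had residual correlations of -0.19 to 0.33. With the replicate block Cybrd1 had an adjusted p of 0.153 and Hfe 0.0739, which ended the Hfe call. Cybrd1 and Hmox1 rest on 5 to 149 reads a library, and the effect of depth on them was not tested.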
